A study of Homo sapiens with 6 samples.

Results

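The genes described here are the protein-coding zinc finger genes of human chromosome 19 whose names begin with ZNF and a number, 249 of the 20176 protein-coding genes of the GENCODE annotation on hg19. They were chosen by name and position alone, and 3 of them are readthrough genes with a hyphenated name. Sites were taken on the strand of the gene and assigned to coding sequence, 3'UTR or intron by the base at their midpoint. The libraries were made from HEK293, an established human embryonic kidney cell line, grown with 4-thiouridine (4SU) and doxycycline, irradiated with UV light of 365 nm and treated with RNase T1. The study asked how RNA that crosslinks in the absence of an RNA-binding bait compares with the RNA bound by HuR (gene ELAVL1), a protein that binds U-rich and AU-rich sequence. In cells stably carrying inducible FLAG-tagged GFP, material recovered with the FLAG M2 antibody was cut from a gel at about 20, 35 and 45 kDa, which gave the background libraries G20, G35 and G45. In cells carrying inducible HuR, the same antibody gave HuR replicates 1 and 2. Total was RNA of the lysate without immunoprecipitation, digested with proteinase K and depleted of ribosomal RNA. The slices and Total were sequenced as single libraries, nothing says that the HuR replicates came from separate cultures, and the HuR seen is the induced, tagged protein.

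Most of these genes encode proteins with arrays of Cys2-His2 zinc fingers, each of which reads a few bases of DNA, and many also carry a KRAB box. The KRAB box recruits the corepressor TRIM28 and, through it, enzymes that set repressive chromatin, and many such proteins are known for silencing transposable elements. The genes arose by tandem duplication, so their finger-coding exons resemble each other closely, and the fingers are joined by a short linker that is nearly the same in all of them. A motif search in the translated transcripts found at least 1 finger in 247 of the 248 genes with a coding transcript, with a median of 12 and up to 36 fingers, and a KRAB motif in 187. In all, 1675 linkers of the form TGEKP or TGERP were found, and the most frequent coding of the linker, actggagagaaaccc, stood for 326 of them.

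The sequences of a few sites show what kinds of RNA the libraries held. They are given 5' to 3' with hg19 positions. The first set is of 3'UTR sites of at most 30 bases that lay in both HuR replicates and in no background slice. These are the 6 such sites with the most reads in HuR replicate 2, chosen after their values were seen, with runs of 3 or more T in capitals.
ZNF8, chr19:58813750-58813772, plus strand: cTTTTTcttaaaatatacacgtg
ZNF567, chr19:37212130-37212148, plus strand: catactattccaTTTTaag
ZNF585B, chr19:37672562-37672591, minus strand: aataatatgctattgtctggaagtaccatg
ZNF529, chr19:37035763-37035792, minus strand: tcactgtcattcattacaTTTTaaTTTTTg
ZNF417, chr19:58419470-58419493, minus strand: cTTTctattcaacatcTTTctaag
ZNF101, chr19:19793486-19793513, plus strand: TTTTcaTTTTTTTctatccaTTTTaaag
A T-run of this length stood in 5 of the 6, and the ZNF585B site had none. How often such runs stand in all 3'UTR sites was not counted, so the 5 do not set HuR apart. The longer run TTTTT was in 18.3% and 24.1% of 3'UTR sites of HuR replicates 1 and 2 and in 31.4% of those of G45. HuR replicate 2 had 285 reads at the ZNF8 site and 120 at the ZNF101 site, and HuR replicate 1 had 3 and 2.

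The second set is of sites that were prominent in the background slices, by their reads. In the ZNF229 sequence, as found in G35, capitals mark the bases that were inside the site in all 6 libraries. In the others they mark runs of 3 or more T.
ZNF229 intron, chr19:44937158-44937182, minus strand: tggGGTAGTTCAGTTGGTTAGAATt
ZNF875 intron, chr19:37827069-37827086, plus strand: ctggTTTgttaagttgga
ZNF431 intron, chr19:21328630-21328649, plus strand: gaggagcaaacaggattaga
ZNF677 3'UTR, chr19:53738963-53738981, minus strand: agaagagtagggtgggaca
ZNF274 coding, chr19:58698310-58698329, plus strand: gcagaacatcagcTTTccaa
The third set is of the coding sites with the most reads in Total among those of at most 30 bases.
ZNF460 coding, chr19:57803136-57803163, plus strand: acacttcaacatccacactggagagaag
ZNF146 coding, chr19:36727420-36727439, plus strand: ccacaaatcaaacctcactg
The ZNF460 site ends in bases that code for the start of a linker. The ZNF146 site does not.

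The libraries held between 6187300 reads in G35 and 38644636 in G20, so that 3 reads correspond to 0.0776 to 0.485 RPM, the usual unit of reads scaled to the size of the library. The reads carry no molecular identifiers, and the intervals and floors given here cover counting error only. Of 3 genes known to be expressed in HEK293, Total had 1652 coding reads of VIM, 139 of NEFL and 4 of NEFM. Of blood and liver genes, it had 0 coding reads of CD3E and HBB, 3 of PTPRC and 38 of ALB. The edgeR fit scaled the libraries by factors from 0.1739 in G20 to 2.145 in Total, so fitted fold changes differ from ratios of RPM. More RNA of a gene and more crosslinking per RNA molecule cannot be told apart in such bulk libraries.

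The zinc finger genes took a small and unequal share of the reads. They held 49721 reads in G20, 92138 in G35, 82676 in G45, 53379 in HuR replicate 1, 383119 in HuR replicate 2 and 108346 in Total. Relative to the library this was 0.129% in G20 and 0.302% in Total, and between 0.560% and 1.49% in the other 4. Nearly every gene of the group was seen: 249 had at least 1 site in HuR replicate 2, 243 in Total and 214 in G35, the library with the fewest.

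In the background slices, most of these reads lay at a single intron site of ZNF229, a KRAB zinc finger gene on the minus strand. The site held 34942 reads in G20, 82595 in G35 and 70943 in G45. It held 6061 in HuR replicate 1, 50877 in HuR replicate 2 and 5 in Total. In RPM the slices were at 904, 13349 and 9409, HuR at 636 and 1584, and Total at 0.139, so that Total lay far below every library made by immunoprecipitation and the HuR replicates lay around G20. Of the intron reads of all 249 genes, this site took 83.5% in G20 (95% Wilson interval 83.1 to 83.8), 92.9% in G35 and 89.3% in G45. In HuR the share was 15.9% and 16.9%, and in Total 0.0116%. The site carried 41.9 to 44.4 conversion events per 100 reads in the slices, 50.6 in HuR replicate 1 and 42.7 in HuR replicate 2. It was among the 10 sites with the most reads of the whole library in G35, G45 and HuR replicate 2. Total, with 5 reads there, had 1 event. The reads are assigned to ZNF229 by position and strand alone. Whether they come from ZNF229 RNA or from another transcript at this place, such as a tRNA, was not tested, since no tRNA annotation was used.

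**Figure D1:**
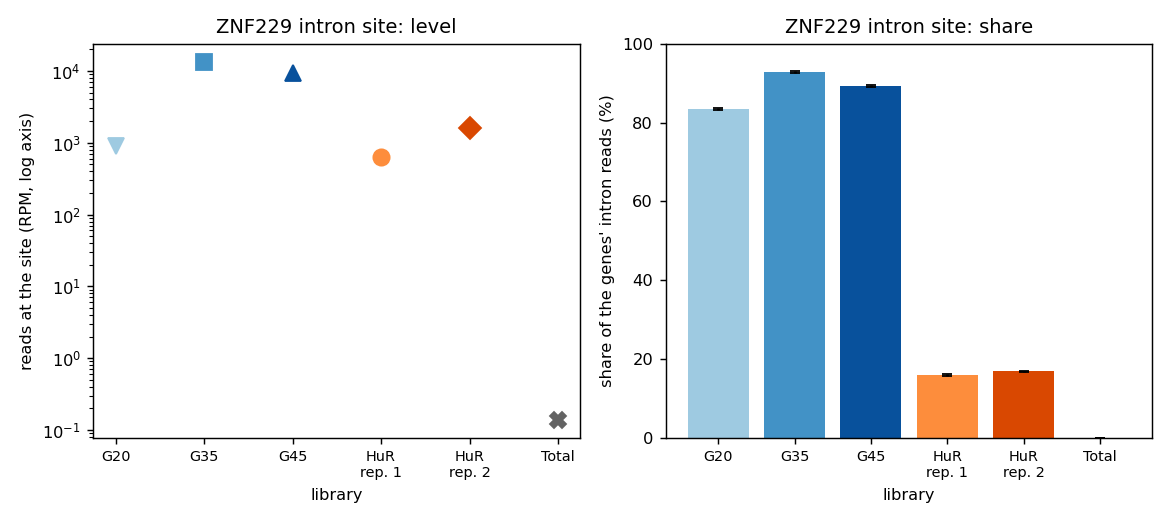
Reads at the ZNF229 intron site by library: on the left in RPM on a log axis, with 1 point per library, and on the right as a share of the intron reads of the 249 genes in percent, with 95% Wilson intervals as bars. G35 and G45 stand highest on the left at 13349 and 9409 RPM, and Total lowest at 0.139 RPM. On the right the slices lie between 83.5% and 92.9% and HuR at 15.9% and 16.9%.

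Other background sites differed in their conversions, the T-to-C changes that mark crosslinked 4SU. The ZNF677 3'UTR site had 114, 822 and 331 reads in G20, G35 and G45, with 113, 821 and 331 events, close to 1 per read and all at 1 position of each library's site. The ZNF431 intron site, whose sequence has no run of 3 T, had 311, 669 and 972 reads and 0 events. At the ZNF875 intron site, 10.1 to 12.5 events per 100 reads were found in the slices. In the slices the ZNF677 site thus had nearly every read converted, while the ZNF431 site had none. The same pattern stood in HuR. Replicates 1 and 2 had 27 and 102 reads at the ZNF677 site, with as many events. At the ZNF431 site they had 81 and 633 reads and 0 events. In coding sequence, the ZNF274 site had 12, 14 and 65 reads in the slices, with as many events as reads in each. HuR had 2 and 31 reads there, again with as many events. Why these sites were converted alike in the slices and HuR was not tested.

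Because of the ZNF229 site, the division of reads between regions is given with and without it. With all sites, introns held 84.2%, 96.5% and 96.1% of the genes' reads in G20, G35 and G45, 71.4% and 78.6% in HuR replicates 1 and 2, and 39.6% in Total. Without that site, introns held 46.8%, 66.6% and 72.2% in the slices and 67.8% and 75.3% in HuR, while Total was not affected. The G35 and G45 values without the site lie next to those of HuR, and Total remained lowest. Coding sequence held 29.7% of the reads in Total and, with all sites, 7.32%, 0.636% and 0.855% in the slices and 2.06% and 1.20% in HuR (1.63 ± 0.609%, SD, n = 2), so that G35 and G45 lay below HuR. Without the ZNF229 site the slices had 24.6%, 6.14% and 6.03% and HuR 2.33% and 1.39%, and all 3 slices lay above HuR. The 3'UTR held 24.8% of the reads in Total and 12.9 ± 5.03% in HuR (SD, n = 2). The HuR replicates stood at 9.34% and 16.4% and the slices at 4.37%, 2.04% and 1.95%, all below HuR. Without the ZNF229 site the slices had 14.7%, 19.7% and 13.8% of their reads in the 3'UTR and HuR 10.53% and 18.97%, so that the groups overlapped. When each site was counted once, 12.6% and 12.5% of HuR sites and 13.9%, 15.9% and 16.4% of slice sites lay in 3'UTRs. In all other protein-coding genes the 3'UTR held 7.20% and 12.99% of HuR reads and 15.3% of Total reads, each below the value of the zinc finger genes. ZNF genes of other chromosomes had 11.3% and 17.01% in HuR, above the chromosome 19 genes with all sites, and 22.9% in Total. Without the ZNF229 site, the chromosome 19 genes lay below them in HuR replicate 1 (10.53%) and above them in replicate 2 (18.97%). The other genes of chromosome 19 had 6.23% and 22.1% in HuR and 17.03% in Total. These shares were compared without a test, because the slices and Total are single libraries.

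**Figure D2:**
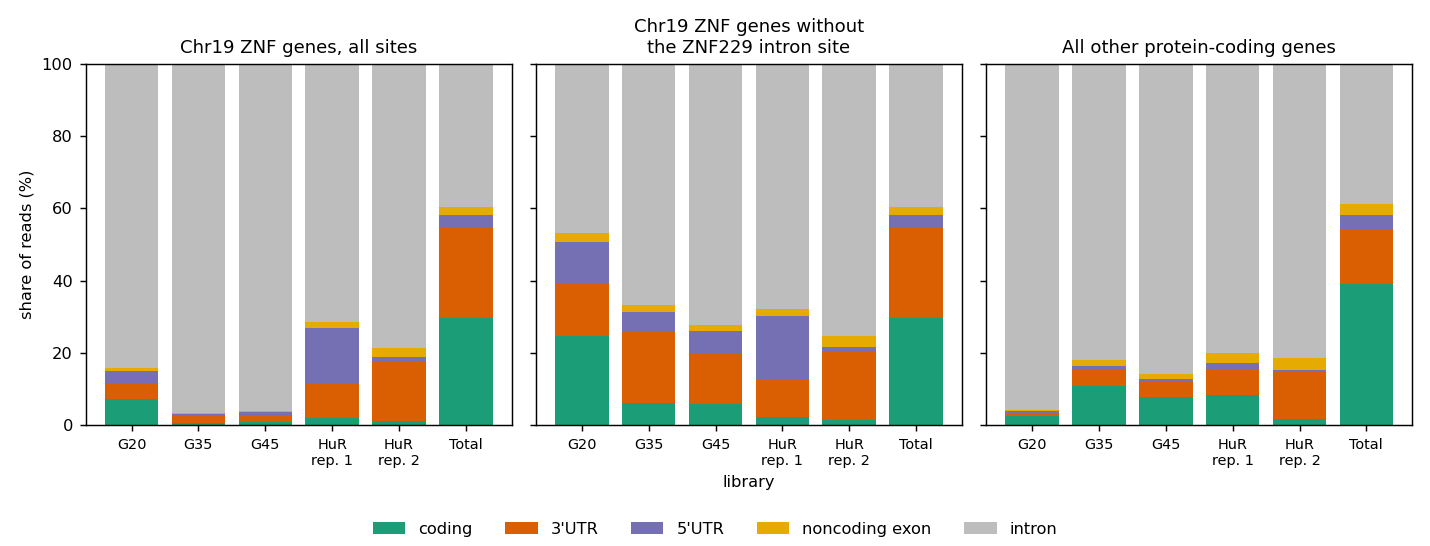
Share of reads by region in percent for the 6 libraries, for the chromosome 19 ZNF genes with all sites, for the same genes without the ZNF229 intron site, and for all other protein-coding genes. Each stack adds up to all reads assigned to the genes of the panel. Intron reads fall from 96.5% to 66.6% in G35 when the ZNF229 site is left out, and Total has the largest coding share at 29.7%.

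Per length, pooled 3'UTR reads of the zinc finger genes were about as dense as those of other genes in HuR replicate 1 and Total. They were denser in HuR replicate 2, and the typical gene was denser in each of these libraries. In HuR replicate 2 the pooled 3'UTR level was 3.02 RPM per kb for the zinc finger genes and 2.23 for all other genes, and in replicate 1 it was 0.806 and 0.803. In Total the pooled levels were 1.15 and 1.09. The median gene had 0.806 RPM per kb in HuR replicate 2 and 0.283 in replicate 1, compared with 0.234 and 0.120 for the median of other genes, and 0.613 against 0.294 in Total. The median was thus higher for the zinc finger genes in HuR and in Total alike. ZNF genes of other chromosomes were similar, with medians of 0.647 in HuR replicate 2 and 0.614 in Total, whereas the other genes of chromosome 19 had 0.106 and 0.323. In G35 and G45 the median zinc finger gene had no 3'UTR read. The 3'UTRs themselves were longer than those of other genes, with a median of 2032 bases against 1297, and held 6.28 TTTTT per kb against 4.75 (counted with overlaps on the transcript strand). ZNF genes of other chromosomes shared the length, with a median of 2043 bases, and had 5.13 TTTTT per kb. The other genes of chromosome 19 had 680 bases and 1.35 TTTTT per kb. Genes with the KRAB motif had a median 3'UTR level of 0.928 RPM per kb in HuR replicate 2 and 0.348 in replicate 1, against 0.523 and 0.111 for those without it. In Total the order was turned, with 0.579 with the motif and 0.769 without.

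The 3'UTRs with the highest HuR levels, ranked by mean RPM of the HuR replicates, were those of ZNF121, ZNF264, ZNF529, ZNF568, ZNF805 and ZNF460. All of them encode arrays of zinc fingers, and all but ZNF121 carry the KRAB motif. The 3'UTR of ZNF121 had 143, 90 and 129 reads in G20, G35 and G45, 303 and 5894 in HuR replicates 1 and 2, and 1266 in Total. This was 108 ± 107 RPM in HuR (SD, n = 2) against 35.2 in Total, and HuR replicate 1 alone lay below Total. The ZNF264 3'UTR had 34, 43 and 45 reads in the slices, 271 and 3709 in HuR and 431 in Total. The 3'UTR of ZNF805 had 23, 34 and 28 reads in the slices, 187 and 1993 in HuR and 290 in Total. Both of these lay higher in each HuR replicate than in Total and in every slice when scaled to the library and length, at 2.81 and 11.4 RPM per kb against 1.19 for ZNF264 and at 2.45 and 7.73 against 1.01 for ZNF805. The ZNF568 3'UTR had 44, 14 and 51 reads in the slices, 111 and 2544 in HuR and 499 in Total. The ZNF460 3'UTR had 35, 28 and 47 reads in the slices, 139 and 1746 in HuR and 548 in Total. For ZNF568 and ZNF460, HuR replicate 1 lay below Total and replicate 2 above it. None of these 5 features passed the edgeR quasi-likelihood test with Benjamini-Hochberg adjustment against the slices, with fitted log2 fold changes of 1.05 ± 0.66 (SE) for ZNF121, 2.04 ± 0.67 for ZNF264, 1.80 ± 0.69 for ZNF805, 1.53 ± 0.75 for ZNF568 and 1.18 ± 0.68 for ZNF460. The site with the most reads in the HuR replicate 2 3'UTRs was in ZNF121, with 1031 reads and 1186 events, and had 39 reads in HuR replicate 1 and 0, 0 and 2 in the slices.

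**Figure D3:**
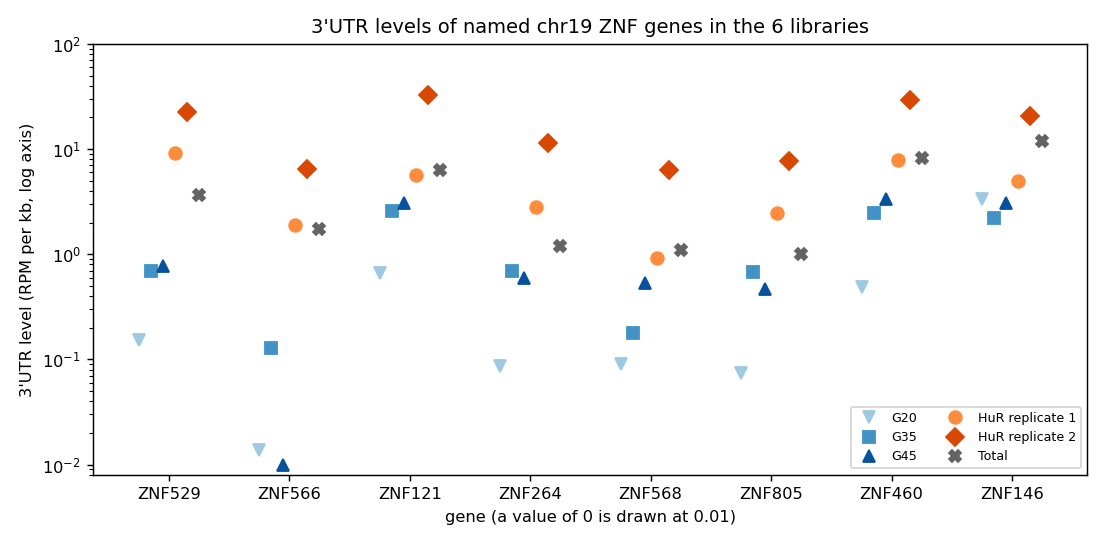
3'UTR levels of 8 named genes in RPM per kb on a log axis, with 1 marker per library and a value of 0 drawn at 0.01. HuR replicate 2 is the highest library for every gene shown, and in ZNF529 both HuR replicates (9.17 and 22.5) lie above Total (3.63) and the slices (0.152 to 0.778).

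Against the background slices, 2 of the 177 zinc finger 3'UTRs tested were higher in HuR and 0 were lower by edgeR's quasi-likelihood test with Benjamini-Hochberg adjustment, where 0.573% of all 3'UTRs tested were higher and 0.583% lower. At an unadjusted p under 0.05, 22 (12.4%) were higher and 8 (4.52%) lower, against 10.7% and 5.999% of all 3'UTRs tested. The ZNF529 3'UTR had 19, 14 and 19 reads in the slices, 283 and 2344 in HuR and 422 in Total, with no overlap between HuR and the slices. Its log2 fold change was 2.95 ± 0.68 (SE, adjusted p = 0.038 by edgeR). The ZNF566 3'UTR had 2, 3 and 0 reads in the slices, 68 and 787 in HuR and 236 in Total. Its log2 fold change was 4.55 ± 1.13 (SE, adjusted p = 0.0413 by edgeR), and in its case the slices were at or below the floor of 3 reads, so the fitted size depends on the prior count of the fit. Both genes lie on the minus strand and carry the KRAB motif. Without HuR replicate 2, without any 1 of the slices, or with sites of 1 read left out, neither passed, and ZNF566 also missed the threshold without the 10 top sites of each library. Over all 177 3'UTRs the median log2 fold change was 1.22, and 133 were above 0, compared with a median of 0.64 in the other genes. Another scaling, by median-of-ratios size factors, shifted the median of all features by -0.146. It also changed the split of calls over all 3 regions from 12 higher and 4 lower to 18 higher and 13 lower. Of all features tested, 3.94% were called, and 7.65% with that scaling. The alternatives moved this background as well, to 17.5% with DESeq2, 7.15% without the low-count filter, 2.04% without the 10 top sites of each library, 4.03% without the ZNF229 site and 0% without sites of 1 read. With 1 library left out it was 0% without G20 or G45, 1.84% without G35, 6.15% without HuR replicate 1 and 2.03% without HuR replicate 2.

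In introns, 10 of 227 zinc finger genes tested were higher in HuR than in the slices and 1 was lower by the same edgeR test, where 2.13% and 0.986% of all introns tested were. The genes higher were ZNF529, ZNF568, ZNF566, ZNF573, ZNF283, ZNF260, ZNF227, ZNF226, ZNF224 and ZNF404. They are named because they passed, after their values were seen. In ZNF529, introns had 123, 102 and 106 reads in the slices, 1227 and 10215 in HuR and 1665 in Total, with a log2 fold change of 2.40 ± 0.65 (SE, adjusted p = 0.0494 by edgeR). In ZNF404 they had 9, 11 and 14 reads in the slices, 182 and 2234 in HuR and 269 in Total, with the largest of the 10 changes, 3.21 ± 0.74 (SE, adjusted p = 0.038 by edgeR). ZNF529 and ZNF566 passed in both the 3'UTR and the introns. The intron of ZNF599, which was lower, had 17, 228 and 68 reads in the slices, 12 and 127 in HuR and 20 in Total. G35 was the highest library there. The introns of ZNF146 had the most HuR reads after ZNF229 and ZNF875 by mean RPM, with 215, 235 and 155 in the slices and 1625 and 17982 in HuR. They did not pass, with a log2 fold change of 2.16 ± 0.69 (SE, adjusted p = 0.0731 by edgeR). The introns of ZNF607 had 85, 129 and 174 reads in the slices, 578 and 6524 in HuR and 472 in Total. The introns of ZNF536, a neural zinc finger gene with a very long intron sequence, had 695, 493 and 598 reads in the slices, 2449 and 9685 in HuR and 3496 in Total. The 10 higher calls became 0 without any 1 of the slices, without HuR replicate 2 or without sites of 1 read, 3 without the 10 top sites of each library, 24 with DESeq2, 21 without the low-count filter and 31 without HuR replicate 1. The ZNF599 call was lost without any 1 slice, without HuR replicate 1, without the 10 top sites or without sites of 1 read, and its log2 fold change was -2.73 without G35. For ZNF229 itself, the intron log2 fold change was -4.54 ± 2.03 (SE, adjusted p = 0.171 by edgeR).

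In coding sequence, 3 of 193 zinc finger genes tested were lower in HuR than in the slices and 0 were higher by the same edgeR test, against 7.45% and 0.0536% of all coding sequences tested. At an unadjusted p under 0.05, 33 (17.1%) were lower and 1 higher, against 34.2% and 0.572% of all coding sequences tested. The 3 genes, ZNF787, ZNF579 and ZNF274, were also among the 6 with the highest coding level in the slices. ZNF787 coding sequence had 182, 11 and 9 reads in G20, G35 and G45 against 3 and 9 in HuR, with a log2 fold change of -5.97 ± 1.40 (SE, adjusted p = 0.0383 by edgeR). ZNF274 had 93, 17 and 74 reads against 5 and 53. It is a SCAN and KRAB zinc finger gene known to bind other zinc finger genes in their 3' ends, and its change was -4.36 ± 0.99 (SE, adjusted p = 0.0373 by edgeR). ZNF579 had 143, 9 and 25 reads against 2 and 17. All 3 calls were lost without G20, without G45, without HuR replicate 2 or without sites of 1 read, ZNF579 and ZNF274 also without HuR replicate 1, and the ZNF787 change was -3.84 without G20. In G20, ZNF428 had the most coding reads of these genes, 437. G35 and G45 had 1 and 21 there, and each HuR replicate had 21. G20, the largest library, thus stood far above the other slices and HuR in reads, and it also stood above them in RPM. At the ZNF428 coding site with the most reads in G20, Total had 272 reads against 358 in G20. The median over the 193 was -1.93, against -2.78 in the other genes, and stood at -0.86 when G20 was left out.

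Against Total, no zinc finger 3'UTR or intron passed edgeR's quasi-likelihood test with Benjamini-Hochberg adjustment in either direction, and 5 of 193 coding sequences were lower in HuR, where 4.39% of all coding sequences tested were lower and 0.0179% higher. Among all genes 0.1% and 0.141% of 3'UTRs were higher and lower, and 0.0816% and 0.0476% of introns. At an unadjusted p under 0.05, 9 zinc finger 3'UTRs (5.08%) were lower, 8 introns (3.52%) higher and 70 coding sequences (36.3%) lower, against 7.12%, 7.22% and 38.6% of all features of these regions. DESeq2 called 28 features of the zinc finger genes over the 3 regions, where it called 8.01% of all features. The edgeR test called 1.49% of all features, 4.81% with median-of-ratios size factors, 5.61% without the low-count filter, 0.619% without the 10 top sites, 1.61% without the ZNF229 site and 0% without sites of 1 read. With 1 library left out the share was 3.23% without G20, 0.683% without G35, 0% without G45, 0.424% without HuR replicate 1 and 3% without HuR replicate 2. Total is a single library that the fit assumes to vary like the others. The coding sequence of ZNF146 had 1226 reads in Total, 7 and 12 in HuR, and 18, 13 and 9 in the slices. Its log2 fold change was -6.57 ± 1.17 (SE, adjusted p = 0.0286 by edgeR). Of the Total reads of ZNF146, 712 lay at its site of 20 bases printed above, where every other library had 0 reads. ZNF460 had 2263 coding reads in Total against 20 and 48 in HuR. Of these Total reads, 941 lay at the printed ZNF460 site and 648 at another site, both nearly empty in the other libraries. Most Total coding reads of ZNF146 thus lay at 1 site and most of those of ZNF460 at 2 sites. The fit was not repeated without these sites. ZNF850 had 1451 coding reads in Total against 7 and 84 in HuR. The other 2 were ZNF551, with 717 reads in Total against 12 and 46 in HuR, and ZNF227, with 794 against 9 and 83. All 5 calls were lost without G45 or without sites of 1 read, and 1 and 2 coding calls were left without HuR replicates 1 and 2. In each of the 5, coding reads per library were far more frequent in Total, while the 3'UTRs of ZNF146 and ZNF460 had 18.8 ± 16.3 and 34.5 ± 28.1 RPM in HuR (SD, n = 2) against 17.3 and 15.3 in Total. The median 3'UTR stood at -0.70, with 60 of 177 above 0, and moved to 0.45 without HuR replicate 1. The median intron stood at 1.20 and the median coding sequence at -3.83, compared with 1.11 and -3.48 in the other genes.

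**Figure D4:**
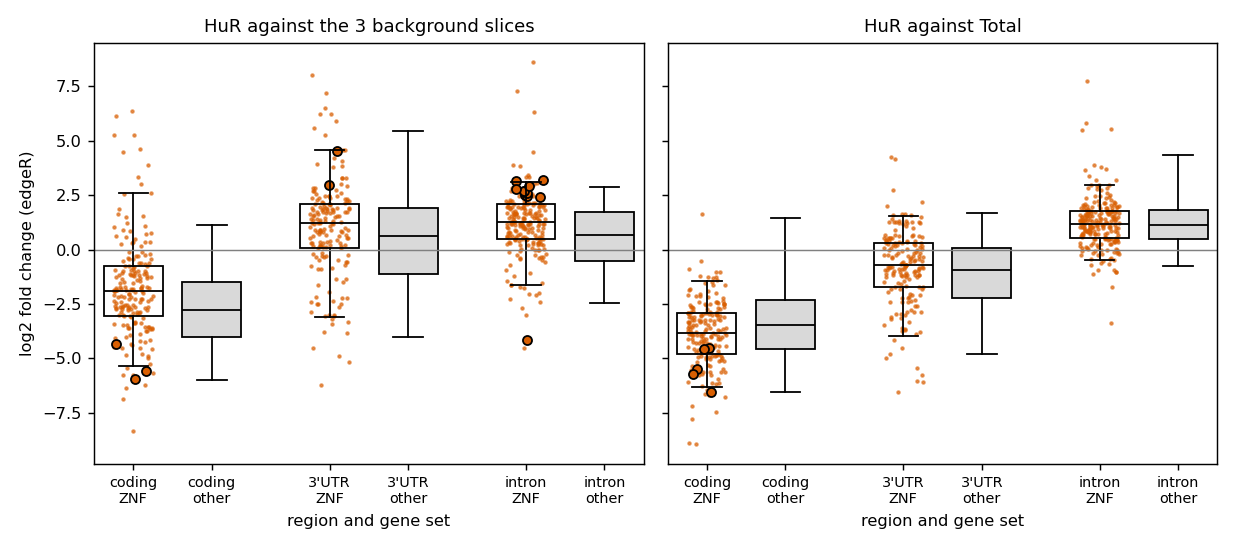
Fitted log2 fold changes (edgeR) of HuR against the background slices and against Total by region. Boxes span the quartiles with the median as a line and whiskers to the 5th and 95th percentile, for the ZNF genes (with 1 point per gene, larger and outlined at an adjusted p under 0.05) and for all other genes (grey). The median of the ZNF genes against the slices is 1.22 in the 3'UTR, 1.26 in introns and -1.93 in coding sequence.

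The HuR replicates differed in level but ranked the genes alike in 3'UTRs and introns. Among the 95 genes with at least 10 3'UTR reads in both replicates, 94 had the higher RPM in replicate 2, with a median log2 difference of 1.83, and Pearson's r of log2 RPM was 0.868 across genes, which are not independent replicates. In introns, 188 of 195 genes were higher in replicate 2, with a median log2 difference of 1.40 and an r of 0.927. Other genes with that many reads shifted the same way, with 94.7% of 3'UTRs and 77.8% of introns higher in replicate 2. Their median log2 differences were 1.63 and 0.992, with an r of 0.761 and 0.803. In coding sequence 12 zinc finger genes had that many reads in both, with an r of -0.44 and a Spearman rho of 0.235. ZNF331 stood apart there, with 390 coding reads in replicate 1, of which 386 lay at a site of 17 bases with 0 conversion events and 0 reads in replicate 2. All 95 of the zinc finger 3'UTRs compared had reads in at least 1 background slice, and of 4606 such 3'UTRs of other genes 72 (1.56%) had none.

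**Figure D5:**
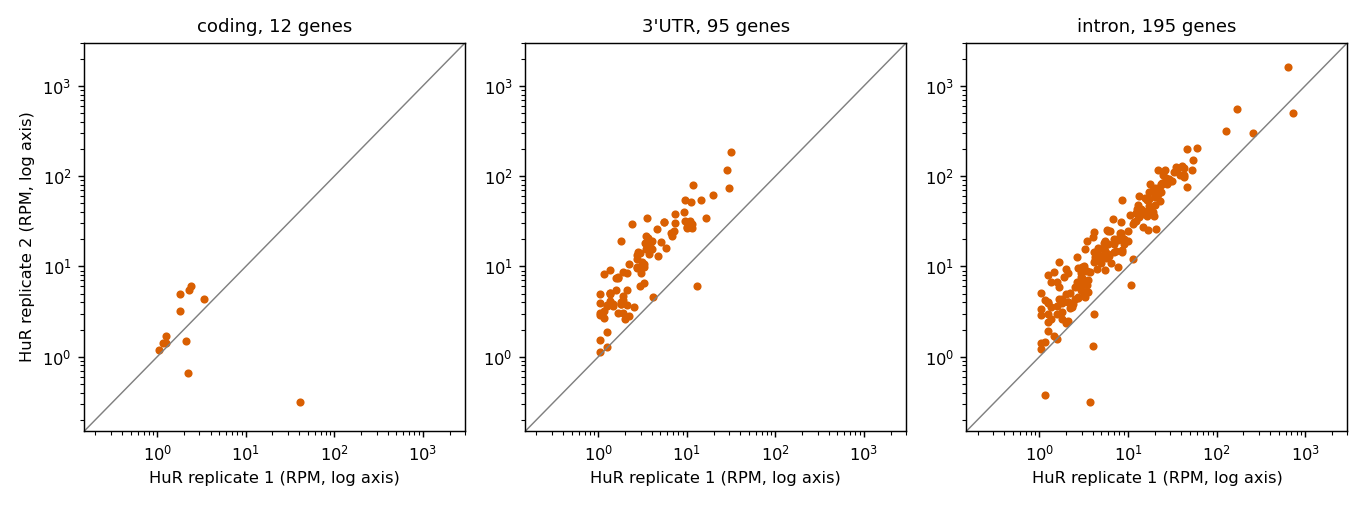
RPM in HuR replicate 1 against HuR replicate 2 on log axes, with 1 point per chromosome 19 ZNF gene with at least 10 reads in both replicates, by region. The line marks equal RPM. In the 3'UTR panel 94 of 95 genes lie above the line, and in the intron panel 188 of 195. Of other genes (not drawn), 94.7% of 3'UTRs and 77.8% of introns with that many reads were also higher in replicate 2.

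Counted as events per read, conversions were most frequent in HuR replicate 2 and least frequent in Total. Over all regions of the genes there were 38.2, 45.9 and 41.6 conversion events per 100 reads in G20, G35 and G45, 64.6 and 94.9 in HuR replicates 1 and 2, and 21.6 in Total. In the 3'UTR alone the slices had 34.4, 80.7 and 54.2 events per 100 reads, HuR 95.6 and 105, and Total 21.8. HuR was above every slice and Total in the 3'UTR, and G35 came closest. In coding sequence, where HuR replicate 1 had 45.6 and G35 had 89.6, this order did not hold. At sites with exactly 1 read, which show directly whether the read was converted, 88.0% and 82.0% of 3'UTR sites of HuR carried a conversion, against 31.0%, 62.5% and 51.1% in the slices and 25.9% in Total. By this measure HuR replicate 1 stood above replicate 2. There were 24 such sites in G35 and 1222 in Total. The values of all other genes were close, at 85.6% and 80.1% in HuR and 23.7% in Total.

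Sites of HuR that overlapped a slice site by at least 1 base on the same strand were few, but they held many of the reads. In HuR replicate 1, 12.97% of the sites and 52.9% of the reads of the zinc finger genes overlapped background, and in replicate 2 12.2% and 40.9%. Without the ZNF229 site the shares of reads were 46.9% and 31.9%. In 3'UTRs 33.9% and 44.4% of HuR reads overlapped, and in coding sequence 58.1% and 34.3%. Within these regions other protein-coding genes had more, 49.9% and 49.7% in 3'UTRs and 86.3% and 62.8% in coding sequence. In introns the zinc finger genes had 46.7% and 40.4%, and other protein-coding genes 46.4% and 19.3%. Without the ZNF229 site the zinc finger introns had 36.7% and 28.2%, below other genes in replicate 1 and above them in replicate 2. Introns of ZNF genes of other chromosomes had 35.2% and 17.1%. ZNF genes of other chromosomes had 36.7% and 44.3% in 3'UTRs, near the chromosome 19 genes, and 44.3% and 38.7% in coding sequence. Over all regions, other protein-coding genes had 50.2% and 24.5% of their HuR reads at such sites. The other genes of chromosome 19 had 70.4% and 42.3%. Of the 3401 3'UTR sites of HuR replicate 2, 1329 also lay in replicate 1, and 977 of these, in 137 genes, lay in no slice. Of those 977, 598 overlapped a site of Total.

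The letters of the sites differed between regions and libraries. TTTTT was found in 18.3% and 24.1% of 3'UTR sites in HuR replicates 1 and 2 and in 10.6% of those in Total (on the strand of the site, counted as present or absent). Of the slices, G20 had it in 9.92%, G35 in 21.7% and G45 in 31.4% (95% Wilson interval 26.4 to 36.9), so G45 was above both HuR replicates. Weighted by reads, HuR replicate 1 had 21.4%, HuR replicate 2 44.6% and G45 24.6%, so that G45 lay between the replicates. In coding sequence, TTTTT lay in 1.18% to 4.29% of the sites of a library. GGAG, a G-rich tetramer, was found in 38.4%, 30.1% and 33.5% of coding sites in G20, G35 and G45, 12.2% and 24.3% in HuR, and 14.0% in Total. Coding sites of other genes had it in 32.2%, 26.4% and 24.7% in the slices, 9.93% and 20.1% in HuR and 16.4% in Total. The most frequent linker coding contains GGAG, and its part in these shares was not tested. GGGG was found in 15.02%, 6.85% and 10.4% of coding sites of G20, G35 and G45, 6.09% and 8.10% of those of HuR and 5.41% of those of Total. For GGGG, G35 thus lay between the HuR replicates. In other genes TTTTT lay in 15.8% and 21.6% of HuR 3'UTR sites and 25.5% of those of G45. ATTTA, the core of AU-rich elements, was in 9.67% and 10.3% of HuR 3'UTR sites of the zinc finger genes and in 6.08%, 15.9% and 12.3% of those in G20, G35 and G45 and 8.34% of those in Total. At sites of 15 to 30 bases the G35 share was 9.68%, next to 8.67% and 8.63% in HuR. Sites were longer in some libraries, with a median of 25 and 27 bases in HuR 3'UTRs, 28 to 29 in the slices and 24 in Total. At sites of 15 to 30 bases TTTTT lay in 28.2% of 3'UTR sites in G45, 16.2% and 17.4% in HuR and 9.62% in Total, and G45 remained above both HuR replicates.

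Linkers between fingers made up 5.58% of the coding bases of the zinc finger genes. By site midpoint they held 1.54%, 2.62% and 0.430% of coding reads in G20, G35 and G45, 0.403% and 2.30% in HuR and 0.343% in Total. Counted by any overlap with a linker, the shares were 6.53%, 6.11% and 2.30% in the slices, 3.63% and 6.12% in HuR and 11.3% in Total. The ZNF460 site printed above, with 941 reads in Total, overlaps a linker at its end. A site longer than 1 base meets a linker more often by overlap than by midpoint, so these shares are not to be read against the 5.58%. Of windows of 24 bases centred on a linker base, 39.3% occurred at no other place on chromosome 19, against 77.9% of those centred elsewhere in the coding sequence. Since only uniquely mapping reads were kept, reads from repeated windows were not counted. The part of this in the shares was not tested.

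Along the chromosome the genes fell into 16 groups separated by more than 1 Mb. The largest, with 59 genes, spanned ZNF628 to ZNF446, with 1475 and 16769 3'UTR reads in HuR replicates 1 and 2. The group of 26 genes from ZNF565 to ZNF573 had 1239 and 17108 such reads, at 1.57 and 6.41 RPM per kb, against 1.04 and 3.49 in the group of 59. In the group of 40 genes from ZNF175 to ZNF331, the 3'UTR levels were 0.421 and 1.20 RPM per kb in HuR and 1.34 in G35, where the ZNF677 site lies. The median log2 fold change against the slices was 2.09 in the group of 37 genes from ZNF101 to ZNF254 and 0.54 in the group that holds ZNF677.

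The partners of KRAB zinc finger proteins were looked at as a list of 15 genes for TRIM28 and other silencing factors, which are not members of the family. In coding sequence, 3 of 14 tested were lower in HuR than in the slices and 4 of 14 lower than in Total by edgeR's quasi-likelihood test, and 0 were higher, where 7.45% and 4.39% of all coding sequences were lower. TRIM28 coding sequence had 820, 54 and 57 reads in the slices, 14 and 113 in HuR and 2487 in Total. In the 3'UTR 0 of 15 passed in either comparison, with a median log2 fold change of 1.02 against the slices, next to 1.22 for the zinc finger genes. In introns, 1 of 15, TASOR, was higher than in the slices, where 2.13% of all introns were, with 82, 75 and 52 reads in the slices and 687 and 6948 in HuR. The 3'UTR of ELAVL1, the gene of HuR itself, had 37, 18 and 23 reads in the slices, 206 and 1994 in HuR and 316 in Total. It passed in neither comparison by edgeR, with a log2 fold change of 2.09 ± 0.67 (SE, adjusted p = 0.0747) against the slices and 1.34 ± 0.95 (SE, adjusted p = 0.482) against Total.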

How the data were processed

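The authors removed adapters, aligned reads to hg19 with Bowtie (both named in the submitters' processing notes) and used PARalyzer to keep uniquely mapping reads whose only mismatches, if any, were T-to-C, so that unconverted reads are included. The deposited tables of groups, which list every site with at least 1 read, hold raw counts per site of reads, conversion locations and conversion events, and removal of PCR duplicates is not stated. Tables of clusters were not used. Library totals ran from 6187300 to 38644636 reads, and Wilson intervals (95%) cover counting error only.

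Sites were assigned by midpoint and strand to GENCODE 44 genes lifted to hg19, with coding sequence before 3'UTR, 5'UTR, noncoding exon and intron. At 11.3% of the reads of the zinc finger genes the midpoint lay in more than 1 gene. RPM is relative to all reads of a library's table. Site sequences come from the deposited tables, and every one on chromosome 19 matched the GRCh37 sequence.

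Coding, 3'UTR and intron counts of all protein-coding genes were fitted together in edgeR 4.0.16 (quasi-likelihood test, TMM, filterByExpr, Benjamini-Hochberg adjustment over all features, threshold 0.05) under R 4.3.3, with the 3 slices, the 2 HuR libraries and Total as groups. The slices are not replicates of each other, so the spread in the background group is that between gel regions, and p-values may measure technical spread. DESeq2 1.42.0, other scalings, filters and left-out libraries were alternatives, and the scripts were tested on simulated counts. Named genes were the 6 highest by HuR RPM in 3'UTRs and in introns, by slice RPM in coding sequence and by Total RPM in exons, and the 3'UTRs that passed the test. Sites were the 3 with the most reads per library and region. Introns and coding sequences that passed, the HuR sites printed first, the 5'UTR sites and the ends of the gene groups were named after their values were seen. Of the named genes, ZNF585A is named only here. The genes and lists were chosen with earlier results of these data known.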

Additional observations from a re-analysis of the deposited data

How the results depend on the processing

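No paired analysis was possible because only the HuR libraries carry replicate numbers, so the groups share fewer than 2 numbers. The calls depended strongly on the processing. HuR against the slices, the 16 calls became 31 with median-of-ratios (RLE) size factors, 68 with DESeq2, 42 without the low-count filter, 7 without the 10 top sites of each library and 0 without sites of 1 read, and ranged from 0 to 44 with 1 library left out (0 without G20 or G45, 4 without G35, 44 without HuR replicate 1, 2 without HuR replicate 2). Against Total, the 5 calls became 13, 28, 30, 3 and 0 under the same settings, and 0 to 12 with 1 library left out (12 without G20, 2 without G35, 0 without G45, 1 and 2 without HuR replicates 1 and 2). Of the 21 gene calls, RLE, DESeq2 and the missing filter each kept 21, and 0 were kept under every alternative. Sites of 1 read left out shifted the median of all features by -0.307 and -0.410 in the 2 comparisons.

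With 1 library left out, medians against the slices ran from -2.21 to -0.86 in coding sequence, 0.56 to 2.05 in 3'UTRs and 1.09 to 1.98 in introns, and against Total from -3.89 to -3.02, -0.85 to 0.45 and 1.17 to 2.22. Without sites of 1 read the coding medians were -2.61 and -4.59. Against Total, the ZNF460 3'UTR turned to -0.054 without sites of 1 read, and with 1 library left out ZNF121 ran from -0.059 to 1.94 and ZNF568 from -0.16 to 2.07.

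The 3'UTR share was 13.9%, 15.9%, 16.4% and 16.2% in G20, G35, G45 and Total with each site counted once, 3.803%, 1.92%, 1.78% and 23.9% with sites in 1 gene only, 4.92% in G20 and 29.8% in Total with 3'UTR before coding, and 14.7%, 19.7% and 13.8% in the slices without the ZNF229 site, an alternative chosen after seeing the data. Conversion events per 100 reads in G20, G35, G45 and Total were 28.5, 74.4, 56.3 and 22.3 without each gene's top site and 32.9, 75.3, 64.9 and 26.8 at sites of 1 read, and 27.3, 58.9 and 39.6 in the slices without the ZNF229 site. Overlap with background in HuR was 36.1% where at least 50% of the HuR site had to be covered. TTTTT weighted by reads was 13.1%, 11.2%, 24.6%, 33.0% and 8.03% in G20, G35, G45, HuR and Total, and 16.8% in HuR at 15 to 30 bases. Linker shares were 3.16% in G20 and 2.26% in Total with each site counted once, and 6.53%, 6.11%, 2.30%, 4.87% and 11.3% by any overlap. The cause was not tested in any of these. In G35 and G45, the median gene had no 3'UTR read, which limits what those slices can show.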

Other observations

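In HuR replicate 1, 15.4% of the reads of the zinc finger genes lay in 5'UTRs, against 1.16% in HuR replicate 2, 3.38%, 0.561% and 0.893% in G20, G35 and G45, and 3.73% in Total. A site of ZNF787 held 3321 of these reads in replicate 1 and 135 in replicate 2, with 106, 159 and 340 in the slices and 6 in Total. A site of ZNF8 held 2850 reads in replicate 1, 26 in replicate 2, 6, 3 and 16 in the slices and 17 in Total. A site of ZNF576 held 979 reads in replicate 1, 6 in replicate 2, 16, 27 and 57 in the slices and 0 in Total. All 3 sites had few conversions in replicate 1, with 5, 8 and 0 events. They were chosen after their values were seen, and no test was made between the replicates.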
